A study of Mus musculus with 19 samples.

Results

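Liver without visible tumours from 3 mutant mice was compared with liver from 3 control littermates, all adult C57BL/6 males. In the mutants doxycycline withdrawal switches on a transgene whose product pairs c-Jun with Fra-2, both AP-1 proteins. Doxycycline was withdrawn at weaning, at 3 weeks of age, from mutants and controls alike, and these livers were taken 9 months later. The tumour-free pieces came from animals that also bore visible tumours, so they are tissue beside a tumour and not liver of tumour-free mice; the labels call their cells mostly transformed hepatocytes, and those of the controls mostly hepatocytes. The 6 libraries are 1 per animal, chosen by their labels from the 19 libraries of the series; the others are 4 tumours of the same 3 mutants, and 3 mutant and 6 control livers taken 2 months after withdrawal. The sources used here do not give the promoter that drives the transgene. The 2-month and 9-month livers came from separate sequencing runs, and an effect of time cannot be told apart from one of the run.

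AP-1 transcription factors bind DNA as pairs of Jun and Fos proteins, at sites whose core reads TGACTCA, and switch on genes of growth, stress and tissue repair. Fra-2, the product of Fosl2, is the Fos partner of this transgene, and c-Jun is the product of Jun. The liver lobule is built mainly of hepatocytes, which make most plasma proteins and bile acids and clear ammonia, amino acids and drugs, with different enzymes at the portal and the central end of the lobule.

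Total counts ran from 18977477 to 22062341 in the tumour-free libraries and from 19869241 to 20879281 in the controls. The hepatocyte marker Alb, albumin, took 2.97% to 3.39% of all counts in tumour-free liver and 7.70% to 8.12% in control liver. Cdx1 and Cdx2, which specify gut epithelium, had no count in any of the 6 libraries. In whole tissue, fewer cells of a type and less RNA per cell cannot be told apart. Levels below are in CPM, counts scaled to a common library size, after TMM scaling, which corrects library sizes for a few genes taking much of the RNA, listed for animals 1, 2 and 3 of each group, and a change is the fitted log2 change, tumour-free minus control, with its standard error. A gene rose or fell where its Benjamini-Hochberg adjusted p from edgeR's quasi-likelihood test was under 0.05 over all genes tested. By this test the hepatocyte markers Alb, Apoa1, Serpina1a and Cyp2e1 fell, with changes of -1.72, -1.98, -1.94 and -2.56. The hepatocyte markers Ttr (-0.56, adjusted p = 0.0897) and Hnf4a (0.32, adjusted p = 0.312) did not pass.

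Of the markers of neighbouring organs 30 were too low to be tested, among them most of those of pancreas, kidney and fat, and the 5 tested summed to 30.2 to 45.5 CPM in tumour-free liver and 24.6 to 26.4 CPM in control liver. The highest of them was Cela1, a pancreatic elastase, with 21.5, 21.5 and 26.1 CPM in tumour-free liver, against 18.5, 15.01 and 20.3 CPM in control liver. Atp4a, a subunit of the stomach proton pump, had 4.94, 2.77 and 3.54 CPM in tumour-free liver, against 0.630, 0.675 and 0.785 CPM in control liver and rose by 2.43 ± 0.32. Lrp2, the kidney tubule receptor megalin, had 18.1, 3.69 and 1.90 CPM in tumour-free liver, against 0.401, 0.225 and 0.841 CPM in control liver and rose by 4.00 ± 1.02, a call lost without any 1 of the controls (adjusted p from 0.0506 to 0.115). Cfd, adipsin of fat tissue, fell, with 0, 0.0380 and 0 CPM in tumour-free liver, against 4.81, 7.14 and 2.36 CPM in control liver, a ratio of control over tumour-free liver of 346 on 1 tumour-free count (interval 61.5 to 1.371e+04). Their part in the results below was not tested.

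Of 14352 genes tested, 5009 (34.9%) passed: 2599 (18.1%) rose and 2410 (16.8%) fell. Without tumour-free animal 2 there were 1855 rises and 1496 falls. The change was at least 2-fold for 1632 rises and 1245 falls, and at least 8-fold for 460 and 259. In 4973 of the 5009 genes the tumour-free and control libraries did not overlap, as was the case for 49.2% of all genes tested. Where groups of a called gene are said below not to overlap, this adds little to its call. The split depends on scaling: with library size alone 5706 genes rose and 1178 fell, and the median log2 change of all genes moved to 0.425, against -0.00878 with TMM. Genes below whose call is lost with library size alone are named as such.

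**Figure D1:**
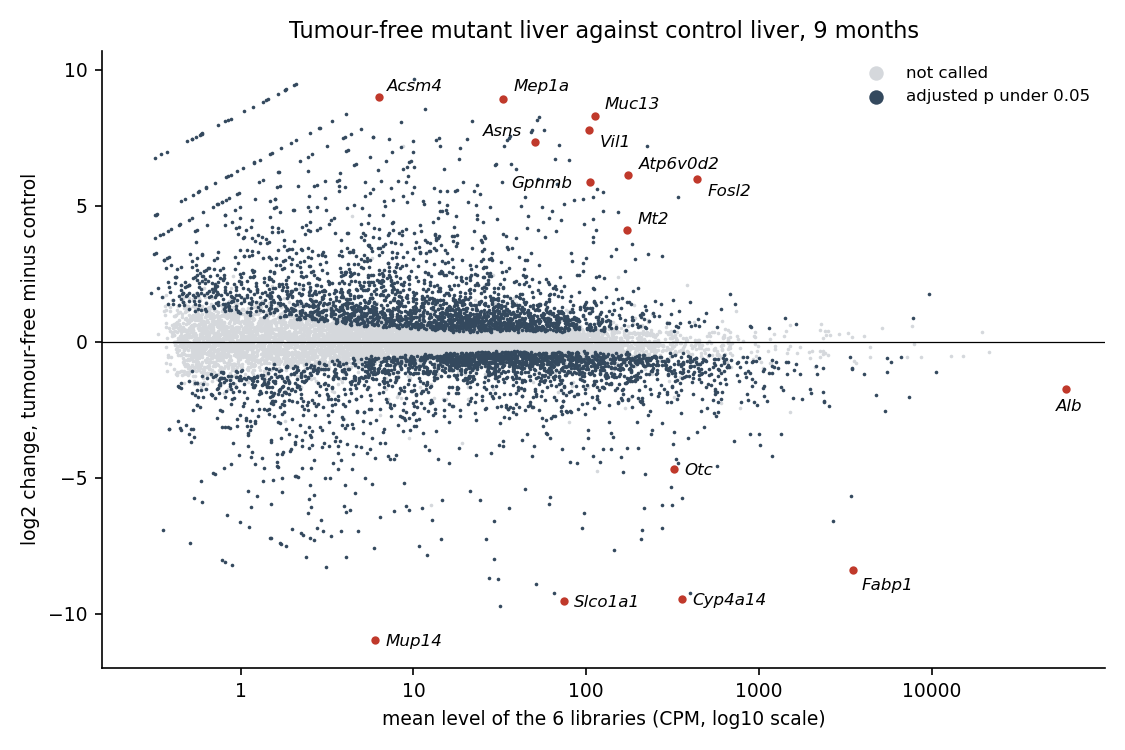
Log2 change, tumour-free minus control, against the mean level of the 6 libraries (CPM, log10 scale), 1 point per gene tested; dark points passed an adjusted p of 0.05. Mup14 stands lowest at -10.96 on this fitted scale, Fosl2 rose by 5.97 at a high level, and the straight rows of points at the upper left are genes with hardly any count in controls.

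The letters around the start of transcription are shown for 3 of the 20 protein coding genes with the largest rises, because their 300-base windows, 250 bases before to 50 after the start, hold the AP-1 core TGACTCA on either strand. Windows from RefSeq (GRCm38.p6) matched 16 of the 20, and the core was in those of 4 of them: Acsm4, Muc13, Lipn and Cryaa. It was in none of the windows of the 13 matched genes among the 20 largest falls, and in 5.2% of all 32851 windows. Windows were matched for 10312 of the 13011 coding gene symbols tested, and the share of genes with the core in larger sets is not given here. The 5.2% is a share of windows, while a gene was counted if any of its windows held the core. These shares are therefore unlike, and the difference between rises and falls was not tested. Capitals mark the core or its reverse complement, each window is written 5′ to 3′ on the gene's strand, and a match describes the letters only.
Acsm4, chr7:119689776-119690075, plus strand: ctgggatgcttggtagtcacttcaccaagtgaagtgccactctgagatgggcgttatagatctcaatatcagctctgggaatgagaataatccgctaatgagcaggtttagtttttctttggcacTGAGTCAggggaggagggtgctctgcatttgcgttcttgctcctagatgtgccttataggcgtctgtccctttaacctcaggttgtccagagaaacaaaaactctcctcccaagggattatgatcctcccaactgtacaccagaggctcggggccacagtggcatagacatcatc
Muc13, chr16:33793787-33794086, plus strand: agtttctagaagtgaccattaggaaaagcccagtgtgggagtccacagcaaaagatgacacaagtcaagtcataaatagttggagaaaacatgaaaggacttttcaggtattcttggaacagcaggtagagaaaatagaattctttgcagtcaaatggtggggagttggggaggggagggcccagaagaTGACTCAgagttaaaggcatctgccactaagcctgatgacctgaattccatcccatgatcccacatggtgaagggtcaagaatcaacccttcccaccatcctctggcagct
Lipn, chr19:34067108-34067407, plus strand: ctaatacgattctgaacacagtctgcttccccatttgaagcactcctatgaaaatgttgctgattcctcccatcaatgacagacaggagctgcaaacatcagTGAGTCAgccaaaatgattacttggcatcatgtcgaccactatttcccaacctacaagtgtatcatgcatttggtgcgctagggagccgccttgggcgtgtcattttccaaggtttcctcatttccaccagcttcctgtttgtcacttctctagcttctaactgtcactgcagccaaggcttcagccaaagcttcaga
In Acsm4 the core begins 125 bases before the start, in this Muc13 window 61 bases before it, and in Lipn 148 bases before it.

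Among the transgene's own genes, Fosl2 had 924, 889 and 772 CPM in tumour-free liver, against 19.6, 12.4 and 9.31 CPM in control liver, a change of 5.97 ± 0.32 (adjusted p = 9.85e-06). Every tumour-free library exceeded every control. Jun had 774, 660.03 and 428 CPM in tumour-free liver, against 383, 40.2 and 22.8 CPM in control liver; its change of 2.08 ± 1.10 did not pass (adjusted p = 0.204), with control 1 far above the other controls, and without control 1 it passed at 4.30 ± 0.39 (adjusted p = 0.000247). Counts do not separate the animals' own Jun and Fosl2 transcripts from those of the transgene. Myc, which encodes the growth regulator c-Myc, had 37.6, 7.15 and 8.30 CPM in tumour-free liver, against 18.8, 6.24 and 4.09 CPM in control liver, and the change of 0.87 ± 0.86 did not pass (adjusted p = 0.482). Myc stood highest in animal 1 of each group and the groups overlapped; without tumour-free animal 1 the direction turned, with a change of -0.31 ± 0.63 (adjusted p = 0.746).

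Of 17 tested genes of the AP-1 family, small Maf partners included, 3 rose and 2 fell, 29.4% against 34.9% of all genes tested. Beside Fosl2, the small Maf gene Mafk rose, with 68.1, 56.6 and 45.3 CPM in tumour-free liver, against 21.2, 21.5 and 24.6 CPM in control liver and a change of 1.34 ± 0.17, while its relative Maff changed by -1.78 ± 0.41, a call lost without tumour-free animal 2 or 3 (adjusted p = 0.0517 and 0.0523). Fos, the best known partner of Jun and an immediate early gene, was chosen after its values were seen: it had 18.8, 1.98 and 3.37 CPM in tumour-free liver, against 660.2, 3.71 and 1.23 CPM in control liver, so that control 1 alone was high, and it did not pass (-4.77 ± 2.47). Junb, chosen likewise, followed the same order, with 82.5, 36.8 and 37.9 CPM in tumour-free liver, against 346, 27.2 and 25.4 CPM in control liver and a change of -1.32 ± 1.12 that did not pass. Without control 1 both signs turned, to 1.70 for Fos and 0.99 for Junb. Of 32 other immediate early genes 3 rose, Klf6 by 1.47 ± 0.18 among them, and 2 fell.

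Acsm4, a medium-chain acyl-CoA synthetase, is the coding gene with the largest rise. It had 18.2, 10.03 and 9.38 CPM in tumour-free liver, against 0, 0.0562 and 0 CPM in control liver, which is 901 counts against 1 count and a ratio of 659 (95% counting interval 118 to 2.607e+04). Slc6a19, which carries neutral amino acids across the gut and kidney brush border, had 32.2, 51.9 and 45.8 CPM in tumour-free liver, against 0.172, 0.225 and 0.0561 CPM in control liver, a change of 8.12 ± 0.36. Slc15a1, the peptide transporter of the gut, had 12.1, 6.42 and 5.79 CPM in tumour-free liver, against 0, 0 and 0.0561 CPM in control liver, a ratio of 426 on a single control count (interval 76.1 to 1.685e+04). Cdhr2, a protocadherin that links microvilli, had 111, 111 and 87.3 CPM in tumour-free liver, against 0.515, 0.450 and 0.112 CPM in control liver, a change of 8.15 ± 0.33. In these 4 genes the lowest tumour-free library stood far above the highest control, though the rule that picked them required groups without overlap.

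Vil1, which encodes the actin bundler villin, had 158, 239.8 and 221 CPM in tumour-free liver, against 1.26, 0.731 and 0.841 CPM in control liver, a change of 7.77 ± 0.29. Meltf, a membrane-bound relative of transferrin, had 57.6, 130.4 and 98.02 CPM in tumour-free liver, against 0.229, 0.956 and 0.168 CPM in control liver, a change of 7.71 ± 0.57. The groups did not overlap in either gene, which the rule that picked them required. Signalling genes stood beside them: Bmp8a, a bone morphogenetic protein, had 27.1, 25.5 and 17.2 CPM in tumour-free liver, against 0.0573, 0.112 and 0 CPM in control liver. Adcy8, an adenylyl cyclase, had 20.6, 15.7 and 14.6 CPM in tumour-free liver, against 0.0573, 0.0562 and 0.0561 CPM in control liver. Each had 3 counts in the controls together, which gives ratios of 413 (interval 141 to 2004) and 299 (interval 102 to 1451). P2rx5, an ATP-gated ion channel, had 8.18, 12.999 and 13.6 CPM in tumour-free liver, against 0.0573, 0.112 and 0 CPM in control liver. Ovol1, a transcription factor of epithelial differentiation, had 3.77, 5.28 and 6.09 CPM in tumour-free liver, against 0.0573, 0 and 0 CPM in control liver. P2rx5 had 3 control counts, a ratio of 206 (interval 70.3 to 1001), and Ovol1 a single one, a ratio of 269 (interval 47.9 to 1.063e+04).

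The rises were not equal between animals. Cryaa, the lens protein alpha-A crystallin, had 25.4, 1.82 and 2.68 CPM in tumour-free liver, against 0.0573, 0.0562 and 0 CPM in control liver, so animal 1 was far above the others; its call (adjusted p = 0.0166) was lost without any 1 of the 3 controls, with adjusted p from 0.0576 to 0.104 in those fits. Tff3, a secreted trefoil peptide of mucous epithelia, had 32.4, 92.6 and 165 CPM in tumour-free liver, against 0.286, 0.843 and 0.168 CPM in control liver, a change of 7.80 ± 0.89.

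Elovl3, an elongase of very long fatty acids, was among the 20 coding genes with the largest falls, as were the others given here. It had 0.260, 0.0760 and 0.303 CPM in tumour-free liver, against 88.3, 118 and 101 CPM in control liver, a change of -8.90 ± 0.33. Fabp1, the liver fatty acid binding protein, had 14.7, 23.3 and 24.2 CPM in tumour-free liver, against 5806, 9257 and 5782 CPM in control liver, a change of -8.38 ± 0.37. Hao1, the peroxisomal glycolate oxidase, had 2.94, 0.494 and 0.821 CPM in tumour-free liver, against 328, 229 and 306 CPM in control liver, a change of -7.67 ± 0.66. All 3 were low in every tumour-free library. Sult2a8, a liver sulfotransferase, had 1.65, 1.06 and 1.21 CPM in tumour-free liver, against 1019, 455 and 909 CPM in control liver, a change of -9.23 ± 0.42. Acss3, a mitochondrial short-chain acyl-CoA synthetase, had 0.130, 0.228 and 0.303 CPM in tumour-free liver, against 60.9, 54.6 and 58.9 CPM in control liver, a change of -7.995 ± 0.23. Car14, a membrane carbonic anhydrase, changed by -7.25 ± 0.44, and Wfdc21, a small secreted protein, by -7.24 ± 0.43.

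Hsd3b5, a steroid dehydrogenase of male liver, had no count in tumour-free liver, against 20.2, 1.07 and 14.2 CPM in control liver, at least 285-fold lower against a floor of 3 counts over the group. Its call (adjusted p = 0.0349) was lost without any 1 of the tumour-free animals and without control 1 or control 3, with adjusted p from 0.0666 to 0.0889 in those fits. Several genes of the major urinary proteins, pheromone carriers made by male liver from a cluster of near-identical genes, fell as well. Reads of this cluster cannot be assigned to its members with certainty. Mup3, the most abundant of those on the list, had 78.3, 47.7 and 38.4 CPM in tumour-free liver, against 5898, 4816 and 5128 CPM in control liver, a change of -6.58 ± 0.33. Mup14 had no count in tumour-free liver and 11.1, 3.88 and 21.03 CPM in control liver. Mup genes together took 0.0691% to 0.143% of counts in tumour-free liver, against 0.512% to 0.575% in control liver. Most of the control share was Mup3, so the lower total does not show that the other Mup genes fell as a set.

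Among 836 lncRNA genes tested, 73 rose and 246 fell, so falls led there, while 2485 rises led 2105 falls among 13013 protein coding genes; with library size alone 126 lncRNA genes rose and 158 fell. Lncenc1, a noncoding transcript known from mouse embryonic stem cells, had 5.15, 33.4 and 21.6 CPM in tumour-free liver, against 0, 0 and 0.0561 CPM in control liver, a ratio of 1095 on a single control count (interval 196 to 4.326e+04). Gm807 had 2.94, 3.003 and 3.11 CPM in tumour-free liver, against 0, 0.0562 and 0 CPM in control liver, a ratio of 160.2 (interval 28.5 to 6358). Of the falls, 1700080G11Rik had 0.0433, 0 and 0.0432 CPM in tumour-free liver, against 4.41, 6.18 and 5.22 CPM in control liver, a control level 191 times the tumour-free one (interval 52.5 to 1588), and Gm12718 had 0, 0 and 0.0864 CPM in tumour-free liver, against 7.16, 3.37 and 4.49 CPM in control liver. Slc6a19os rose at the Slc6a19 locus, and since the strand setting of the counting is not given in the sources used here, its reads and those of Slc6a19 cannot be told apart.

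The gene lists that follow were read against the background above, in which 34.9% of genes passed. Of 23 transcription factors that shape hepatocytes, none rose and 6 fell, 26.1% of them, with a median log2 change of -0.26 that turned to 0.17 with library size alone. Nr1i3, the xenobiotic receptor CAR, had 63.7, 47.8 and 72.4 CPM in tumour-free liver, against 518, 924 and 707 CPM in control liver, a change of -3.54 ± 0.28 (adjusted p = 5.67e-05). Esrrg, an orphan oestrogen-related receptor, fell by more, with 0.260, 0.152 and 0.130 CPM in tumour-free liver, against 8.36, 3.88 and 5.72 CPM in control liver and a change of -5.002 ± 0.43. Nr0b2, which encodes the bile acid repressor SHP, changed by -1.35 ± 0.17. Ppara (-0.66 ± 0.12), Nr1i2 (-0.87 ± 0.17) and Nr1h4 (-0.64 ± 0.14), the receptors for fatty acids, xenobiotics and bile acids, fell less, and these 3 calls were lost with library size alone. Hnf4a, the central hepatocyte regulator, had 653, 702 and 568 CPM in tumour-free liver, against 681, 361 and 507 CPM in control liver, a change of 0.32 ± 0.23 that did not pass. The hepatocyte regulators thus split, with Nr1i3 and Esrrg far below control and Hnf4a within the control range in tumour-free animals 1 and 3.

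**Figure D2:**
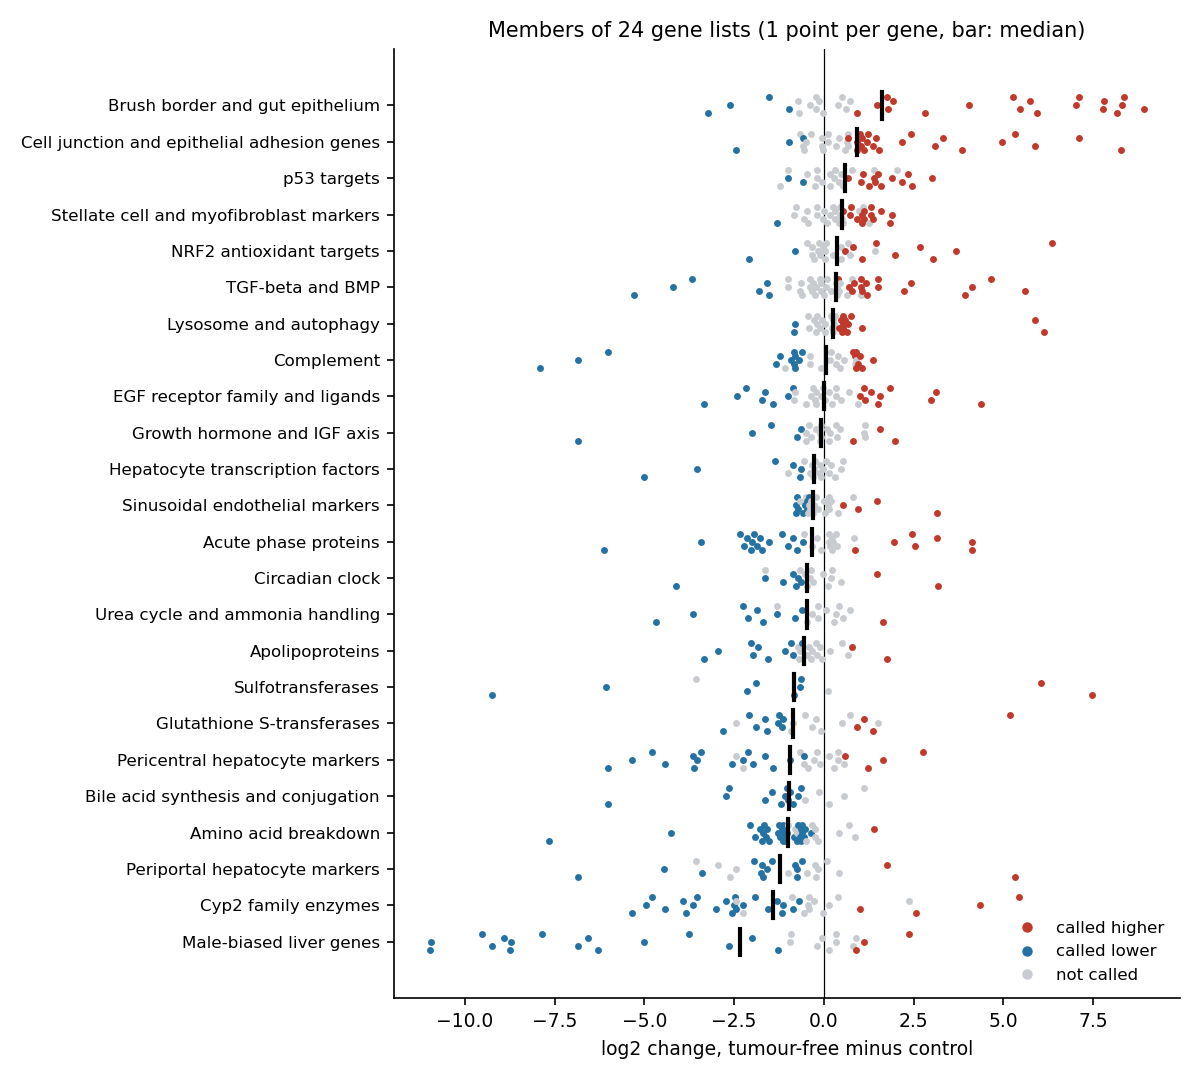
Log2 change, tumour-free minus control, of each tested member of 24 gene lists, 1 point per gene, coloured by whether it passed; the bar is the list's median. The 24 were picked by hand from 64 lists. Among those drawn, brush border genes have the highest median, 1.61, and male-biased genes the lowest, -2.32; oncofetal liver genes, not drawn, have 2.10.

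Of 28 male-biased liver genes 16 fell and 3 rose (median -2.32), and of 22 female-biased genes 11 fell and 5 rose (median -0.74), so both sexes' genes fell more often than they rose. Keg1, a glycine acyltransferase-like enzyme, had 3.07, 2.39 and 1.77 CPM in tumour-free liver, against 257, 141 and 178 CPM in control liver, a change of -6.30 ± 0.32. Exceptions included Cyp4a12b, a male fatty acid hydroxylase (2.37 ± 0.44), and Gstp1, a glutathione transferase (1.11 ± 0.17). Among female-biased genes Abcd2, a peroxisomal fatty acyl-CoA carrier, had 0.563, 1.03 and 0.864 CPM in tumour-free liver, against 49.2, 35.6 and 58.3 CPM in control liver, a change of -5.84 ± 0.28, and Hao2, an oxidase of long 2-hydroxy acids, changed by -6.19 ± 0.61. Sult1e1, the oestrogen sulfotransferase, went the other way, with 102, 51.8 and 59.1 CPM in tumour-free liver, against 0.286, 0.562 and 0.337 CPM in control liver and a change of 7.47 ± 0.39. Atp6v0d2, a subunit of the proton pump that is also known from osteoclasts and macrophages, had 371, 359 and 306 CPM in tumour-free liver, against 6.87, 4.83 and 3.08 CPM in control liver, a change of 6.14 ± 0.31 (adjusted p = 8.29e-06).

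Growth hormone drives much of this sex bias through STAT5. In the growth hormone and IGF axis 5 of 26 genes fell and 3 rose, 30.8% against 34.9% of all genes tested. Igfbp2, an IGF binding protein, had 2.04, 1.33 and 1.43 CPM in tumour-free liver, against 202, 115 and 242 CPM in control liver, a change of -6.85 ± 0.36 (adjusted p = 8.97e-06). Igfals, the subunit that keeps IGF in circulation, had 37.2, 37.4 and 26.9 CPM in tumour-free liver, against 146, 118 and 143 CPM in control liver, a change of -2.00 ± 0.17. The growth hormone receptor Ghr had 291, 227 and 213 CPM in tumour-free liver, against 783, 596 and 673 CPM in control liver, a change of -1.48 ± 0.18. Stat5a (-0.76 ± 0.15) and Igf1 (-0.65 ± 0.15) fell less and lost their calls with library size alone. Fgf21, a fasting hormone, rose by 1.56 ± 0.35 and Igf2r, which clears IGF2, by 0.82 ± 0.16. Socs2 and Cish, classical STAT5 targets, were chosen after their values were seen: they changed by -0.36 ± 0.34 and -0.50 ± 0.50 and did not pass.

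**Figure D3:**
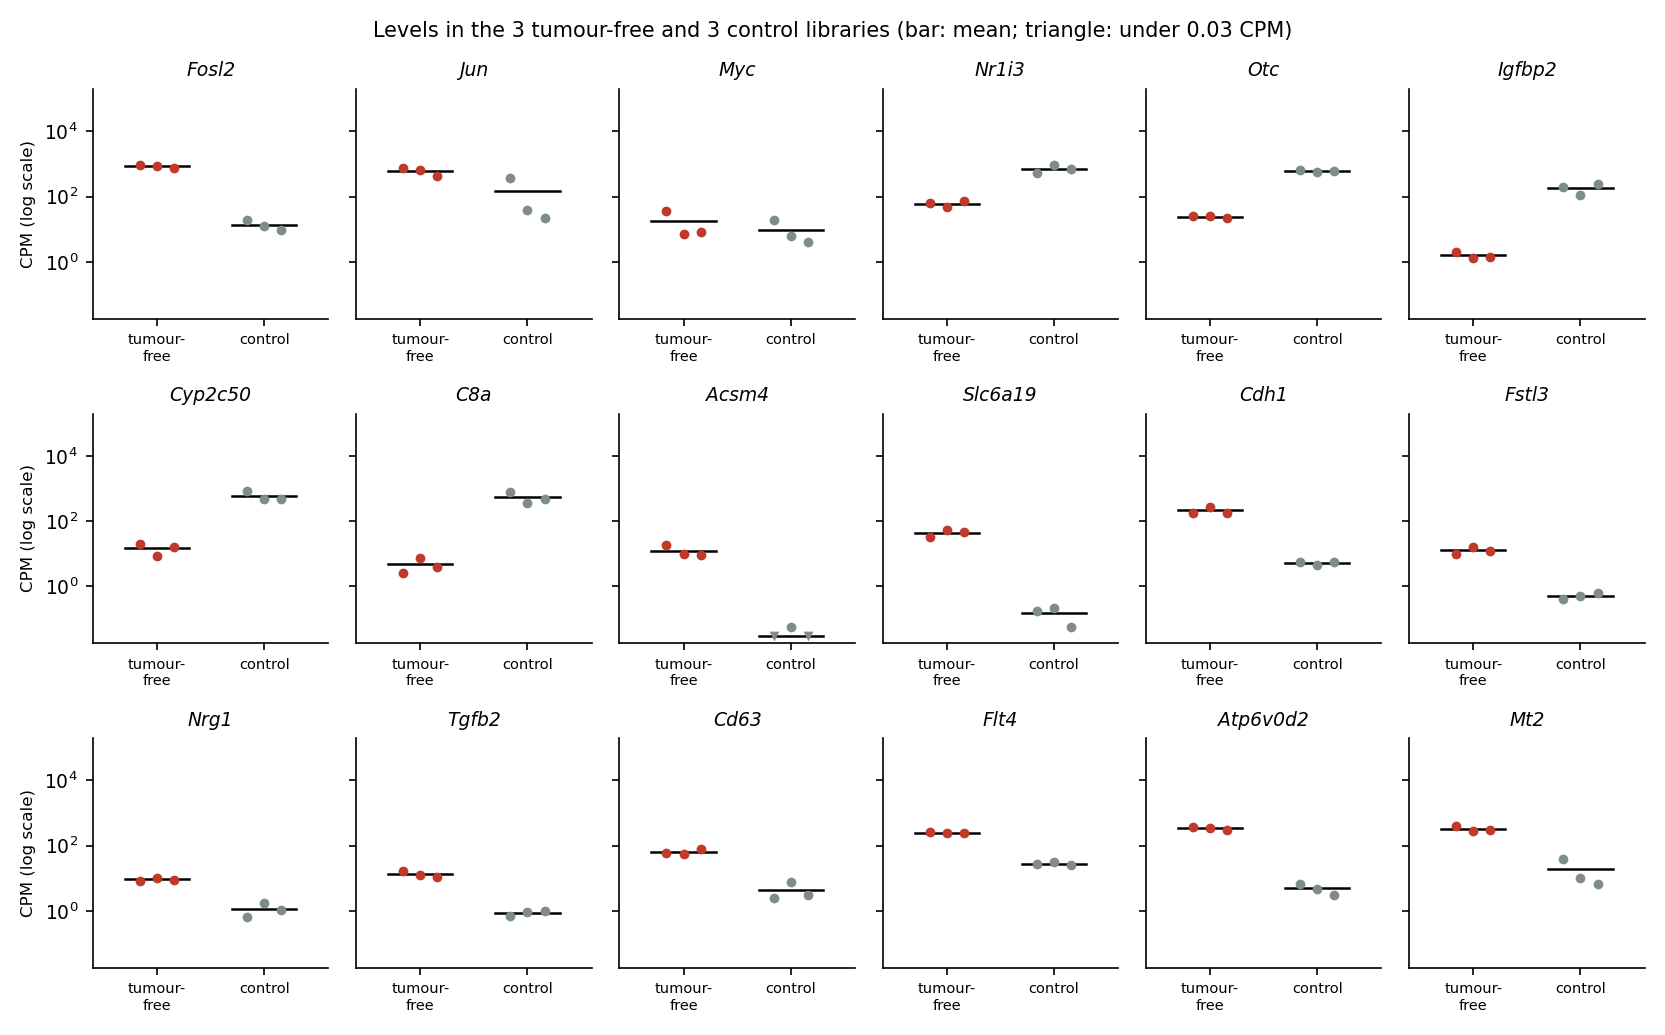
Levels of 18 genes in the 3 tumour-free (left, red) and 3 control (right, grey) libraries, in CPM on a log scale; points are libraries, bars are means, and triangles or a bar at the bottom edge stand for values under 0.03 CPM. Groups are apart in every panel but that of Myc, and control 1 stands above the other controls in the Jun panel.

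Both ends of the lobule lost marker transcripts. Of 26 periportal markers 13 fell and 2 rose (median -1.23), and of 33 pericentral markers 16 fell and 4 rose (median -0.94). Periportal falls included Hsd17b13, a lipid droplet enzyme (-1.94 ± 0.22), Uroc1, urocanate hydratase (-1.59 ± 0.20), and Serpina1c, an antitrypsin (-1.74 ± 0.20). Cdh1, which encodes E-cadherin, rose, with 182, 276 and 179 CPM in tumour-free liver, against 5.79, 4.61 and 5.72 CPM in control liver and a change of 5.31 ± 0.24 (adjusted p = 5.74e-06). Apoa4, an apolipoprotein of gut and fatty liver, had 11502, 15932 and 17168 CPM in tumour-free liver, against 2595, 7242 and 3406 CPM in control liver, a change of 1.76 ± 0.39.

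Among pericentral genes Cyp8b1, the 12-alpha hydroxylase that sets cholic acid output, had 14.5, 8.17 and 6.09 CPM in tumour-free liver, against 586, 612 and 657 CPM in control liver, a change of -6.01 ± 0.35. Cyp2c50 had 20.05, 8.25 and 16.4 CPM in tumour-free liver, against 845, 494 and 473 CPM in control liver, a change of -5.33 ± 0.41, and Cyp2c54 changed by -4.78 ± 0.28; both are drug and fatty acid monooxygenases. Slc1a4, a neutral amino acid carrier, rose, with 63.6, 36.9 and 32.97 CPM in tumour-free liver, against 5.73, 7.59 and 6.56 CPM in control liver and a change of 2.75 ± 0.27, and Rhbg, an ammonia carrier, rose by 1.63 ± 0.36. Sp5, a target of Wnt signalling, changed by -3.61 ± 0.37, while 2 other Wnt targets of the list chosen after their values were seen, Axin2 (0.29 ± 0.17) and Lgr5 (-0.18 ± 0.19), did not pass.

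Most genes of fatty acid oxidation fell. Of 29 genes of mitochondrial fatty acid oxidation 26 fell and none rose (median -1.36), and 23 fell and 1 rose with library size alone. Acadl, the long-chain acyl-CoA dehydrogenase, had 72.5, 58.2 and 44.3 CPM in tumour-free liver, against 318, 291 and 322 CPM in control liver (-2.40 ± 0.20). Slc25a20, the carnitine carrier of the inner membrane, changed by -1.99 ± 0.17. Every control exceeded every tumour-free animal in these genes. Of 48 genes of peroxisomal oxidation and PPARA targets 35 fell and 5 rose (median -1.17). Cyp4a14, a fatty acid omega-hydroxylase, had 0.779, 1.216 and 0.994 CPM in tumour-free liver, against 576, 463 and 1103 CPM in control liver (-9.46 ± 0.46). Acaa1b, a peroxisomal thiolase, had 125, 124 and 120.01 CPM in tumour-free liver, against 1968, 3021 and 1782 CPM in control liver (-4.19 ± 0.25). Pex11a, which divides peroxisomes, changed by -3.37 ± 0.22. Acox3, an oxidase of branched fatty acids, ran against the list, with 355, 366 and 306 CPM in tumour-free liver, against 45.1, 37.8 and 41.6 CPM in control liver and a rise of 3.05 ± 0.15.

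The respiratory chain was lower by a smaller step. Of 48 nuclear genes of the chain 41 fell and none rose (median -0.75), but 8 fell with library size alone, where the median was -0.31. Ndufs3, a core subunit of complex I, had 39.7, 36.9 and 37.8 CPM in tumour-free liver, against 64.2, 64.9 and 64.6 CPM in control liver (-0.75 ± 0.11). Ndufb5, an accessory subunit, had 62.2, 52.5 and 61.2 CPM in tumour-free liver, against 101, 131 and 107 CPM in control liver (-0.94 ± 0.15). Of the 7 tested genes of the mitochondrial genome 4 fell, and with library size alone 1 did. The other 6 listed genes of this genome had too few counts to be tested. Among these, mt-Co2 and mt-Co3 had 0 counts in tumour-free liver and 1 and 2 in control liver, and the reason was not tested. The tested gene mt-Cytb, cytochrome b, had 8217, 5292 and 6429 CPM in tumour-free liver, against 12237, 17132 and 14429 CPM in control liver (-1.13 ± 0.22).

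Lipid synthesis genes moved both ways. Of 37 genes of fatty acid synthesis and lipoprotein assembly 16 fell and 6 rose, though 12 fell and 11 rose with library size alone. Me1, the malic enzyme that supplies NADPH, had 28.97, 21.02 and 24.5 CPM in tumour-free liver, against 316, 406 and 391 CPM in control liver (-3.89 ± 0.20), and the elongase Elovl5 and the desaturase Fads2 changed by -2.21 ± 0.21 and -2.13 ± 0.16. Scd2, a stearoyl-CoA desaturase of brain and fetal liver, rose, with 83.3, 105 and 137 CPM in tumour-free liver, against 6.36, 8.54 and 7.57 CPM in control liver and a change of 3.86 ± 0.23, and Lpin3, a phosphatidate phosphatase, rose, with 88.1, 85.3 and 86.2 CPM in tumour-free liver, against 7.39, 10.2 and 9.37 CPM in control liver and a change of 3.27 ± 0.16. Fads3 rose by 3.03 ± 0.15. Of 35 genes of cholesterol synthesis and uptake 9 fell and 6 rose, against 3 and 9 with library size alone. Lcat, which esterifies cholesterol in plasma, had 167, 157 and 154 CPM in tumour-free liver, against 585, 467 and 588 CPM in control liver (-1.77 ± 0.15), Insig2, a brake on cholesterol synthesis, changed by -2.03 ± 0.30, and Mvk and Sqle, enzymes of the pathway, rose by 0.96 ± 0.16 and 0.83 ± 0.15.

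Nitrogen handling fell in parts. Of 21 genes of the urea cycle and of ammonia handling 9 fell and 1 rose, and the median of -0.48 came to -0.06 with library size alone. Otc, the ornithine transcarbamylase of the cycle, had 24.9, 25.4 and 21.7 CPM in tumour-free liver, against 669, 571 and 627 CPM in control liver, a change of -4.69 ± 0.17 (adjusted p = 2.81e-06). Arg1, the arginase that releases urea, had 702, 335 and 444 CPM in tumour-free liver, against 1568, 1734 and 1554 CPM in control liver, a change of -1.71 ± 0.27. Other steps of the cycle did not pass: Cps1, which starts it, changed by 0.43 ± 0.33 and Ass1, which follows Otc, by -0.17 ± 0.23, both chosen after their values were seen. Ammonia capture at the central end also fell, with Oat, ornithine aminotransferase, at 178, 43.3 and 96.2 CPM in tumour-free liver, against 1136, 1464 and 1386 CPM in control liver (-3.64 ± 0.49) and Glul, glutamine synthetase, at 346, 142 and 181 CPM in tumour-free liver, against 919.9, 994 and 1006 CPM in control liver (-2.12 ± 0.32). Slc38a3, a glutamine carrier, changed by -1.87 ± 0.19.

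Amino acid breakdown fell broadly: of 45 genes 33 fell and 1 rose (median -1.01), and 23 fell and 3 rose with library size alone. Prodh2, which opens hydroxyproline breakdown, had 12.8, 15.2 and 19.1 CPM in tumour-free liver, against 285, 326 and 291 CPM in control liver, a change of -4.25 ± 0.20. Amt of glycine cleavage (-1.70 ± 0.14), Agxt2, a mitochondrial aminotransferase (-1.73 ± 0.15), Ftcd of histidine breakdown (-1.68 ± 0.16) and Grhpr, glyoxylate reductase (-1.77 ± 0.17), fell as well. The rise was Csad, which makes the taurine precursor hypotaurine, with 1002, 1116 and 1025 CPM in tumour-free liver, against 449, 393 and 367 CPM in control liver and a change of 1.39 ± 0.15.

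Of 33 genes of methionine, folate and sulfur metabolism 14 fell and 4 rose, though with library size alone 6 fell and 7 rose. Suox, sulfite oxidase, had 41.1, 35.8 and 26.9 CPM in tumour-free liver, against 191, 155 and 218 CPM in control liver, a change of -2.43 ± 0.20. Mpst, a sulfurtransferase (-1.16 ± 0.14), and Pemt, which makes phosphatidylcholine (-1.17 ± 0.17), also fell. Of the mitochondrial folate enzymes Mthfd2 rose, with 5.85, 7.68 and 6.05 CPM in tumour-free liver, against 1.37, 2.08 and 1.96 CPM in control liver (1.86 ± 0.25), as did Aldh1l2, with 2.81, 2.32 and 1.38 CPM in tumour-free liver, against 0.286, 0 and 0.168 CPM in control liver (3.80 ± 0.66). Shmt2, of the same pathway, had 314, 284 and 296 CPM in tumour-free liver, against 320.1, 297 and 329 CPM in control liver, with overlapping groups.

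None of 18 bile acid synthesis genes rose and 13 fell (median -0.97). Besides Cyp8b1, Cyp7b1 of the alternative pathway changed by -2.65 ± 0.41 and the racemase Amacr by -1.04 ± 0.14. Cyp46a1, a cholesterol 24-hydroxylase, had 3.90, 4.03 and 6.66 CPM in tumour-free liver, against 34.1, 37.05 and 26.02 CPM in control liver (-2.73 ± 0.25). Cyp7a1, the rate-limiting enzyme, was chosen after its values were seen; it had 368, 95.4 and 162 CPM in tumour-free liver, against 243, 66.7 and 115 CPM in control liver, with overlapping groups. Of 19 bile acid transporters 5 fell and 5 rose. Slc10a1, the uptake carrier NTCP, had 249, 188 and 159 CPM in tumour-free liver, against 1045, 678 and 946 CPM in control liver (-2.15 ± 0.23). Abcb11, the canalicular bile salt pump, had 151, 159.8 and 136 CPM in tumour-free liver, against 529.7, 401 and 512 CPM in control liver (-1.68 ± 0.16). Slc51b, the basolateral exporter subunit OST-beta, rose, with 12.8, 26.7 and 26.4 CPM in tumour-free liver, against 0.515, 0.899 and 0.393 CPM in control liver and a change of 5.18 ± 0.42. The uptake carrier and the canalicular pump stood lower in every tumour-free animal than in any control, and the basolateral exporter subunit higher.

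Drug uptake and conjugation followed. Of 22 organic ion carriers 12 fell and 3 rose. Slc17a8 and Slc22a30 changed by -4.17 ± 0.29 and -3.09 ± 0.22. Slc22a27 had 0.130, 0.152 and 0.130 CPM in tumour-free liver, against 7.62, 16.6 and 14.02 CPM in control liver (-6.47 ± 0.42). Of 38 Cyp2 genes 22 fell and 4 rose; reads of near-identical Cyp2c and Cyp2d copies cannot be assigned with certainty. Cyp2c23, an epoxygenase of arachidonic acid, had 67.2, 59.98 and 56.4 CPM in tumour-free liver, against 443, 486 and 541 CPM in control liver (-2.99 ± 0.16). Cyp2c38 had 7.84, 3.61 and 7.82 CPM in tumour-free liver, against 103, 88.7 and 85.6 CPM in control liver (-3.84 ± 0.30). Cyp2d12 rose, with 42.7, 56.8 and 43.1 CPM in tumour-free liver, against 1.03, 1.24 and 1.01 CPM in control liver and a change of 5.44 ± 0.20, and Cyp2b10, the usual target of Nr1i3, rose by 0.99 ± 0.15.

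Within each conjugation family most called members fell while others rose. Of 19 glucuronidation genes 8 fell and 2 rose. Ugt3a1 had 1.04, 0.342 and 0.389 CPM in tumour-free liver, against 82.3, 27.8 and 63.2 CPM in control liver (-6.60 ± 0.57), whereas Ugt1a7c had 67.7, 34.97 and 17.2 CPM in tumour-free liver, against 1.03, 1.18 and 1.18 CPM in control liver (5.14 ± 0.55). Ugdh, which makes the sugar donor, changed by 1.06 ± 0.20. Of 23 glutathione transferase genes 9 fell, Gstt3 (-2.81 ± 0.19) and Gsta3 (-2.08 ± 0.20) among them, and 4 rose, among them Gsta2 (1.36 ± 0.22). Of 11 sulfotransferase genes 7 fell and 2 rose; beside Sult2a8, Sult1b1 changed by -1.90 ± 0.17 and Sult1d1 by -2.14 ± 0.40. Sult2a7 had 0.260, 0.0380 and 0.0432 CPM in tumour-free liver, against 10.02, 7.59 and 5.89 CPM in control liver (-6.06 ± 0.54). The rises were Sult1e1 and Sult2b1, a sterol sulfotransferase of epithelia, with 0.736, 2.09 and 2.03 CPM in tumour-free liver, against 0.0573, 0 and 0 CPM in control liver, a ratio of 87.1 on 1 control count (interval 15.3 to 3468).

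Of 28 antioxidant genes under NRF2 9 rose and 2 fell (median 0.36). Srxn1, sulfiredoxin, had 439, 269 and 246 CPM in tumour-free liver, against 63.8, 92.98 and 88.6 CPM in control liver (1.97 ± 0.26), and Pgd of the pentose phosphate pathway had 309, 257 and 214 CPM in tumour-free liver, against 73.1, 115 and 97.6 CPM in control liver (1.45 ± 0.22). Slc7a11, the cystine carrier, had 65.6, 16.4 and 6.61 CPM in tumour-free liver, against 0.229, 0.731 and 0.112 CPM in control liver, a change of 6.35 ± 1.222 that was lost without control 1 or control 2 (adjusted p 0.0537 and 0.0551). Nqo1, chosen after its values were seen as a standard NRF2 target, changed by 1.42 ± 0.63 and did not pass, and Aox1, aldehyde oxidase, changed by -2.07 ± 0.17.

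Among 42 genes of sugar metabolism 14 fell and 5 rose (median -0.16, or 0.28 with library size alone, where 15 rose and 7 fell). Isoforms moved in opposite directions. Pklr, the liver pyruvate kinase, had 452, 447 and 467 CPM in tumour-free liver, against 896, 932 and 819 CPM in control liver (-0.95 ± 0.14). Pkm, the pyruvate kinase of most other tissues, had 46.2, 24.5 and 28.1 CPM in tumour-free liver, against 6.76, 10.7 and 8.97 CPM in control liver (1.91 ± 0.28). Pfkfb1, the liver form of the enzyme that sets fructose 2,6-bisphosphate, had 6.80, 3.57 and 4.19 CPM in tumour-free liver, against 50.4, 64.9 and 68.6 CPM in control liver (-3.65 ± 0.26). Pfkfb4 had 9.83, 4.49 and 4.75 CPM in tumour-free liver, against 1.37, 1.97 and 0.729 CPM in control liver (2.23 ± 0.44). Slc37a4 and Gys2, of glucose release and glycogen synthesis, changed by -2.21 ± 0.22 and -2.08 ± 0.23, and Pfkp, a phosphofructokinase, by 1.14 ± 0.25.

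Secreted proteins fell unevenly. Of 26 apolipoproteins and partners 10 fell and 2 rose. Apoc4 had 64.04, 74.3 and 95.8 CPM in tumour-free liver, against 533, 1050.1 and 799 CPM in control liver (-3.34 ± 0.29). Pltp, the phospholipid transfer protein, had 45.2, 40.7 and 49.6 CPM in tumour-free liver, against 325, 482 and 241 CPM in control liver (-2.95 ± 0.27). Apoa1 and Apoa2, the main proteins of high-density lipoprotein, changed by -1.98 ± 0.26 and -2.04 ± 0.27, whereas Apob (0.50 ± 0.23) and Apoe (-0.37 ± 0.19), chosen after their values were seen, did not pass.

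Of 38 genes of coagulation and fibrinolysis 11 fell and 6 rose, but 6 fell and 12 rose with library size alone. Klkb1, which encodes plasma prekallikrein, had 91.6, 92.6 and 85.01 CPM in tumour-free liver, against 305, 314 and 317 CPM in control liver (-1.79 ± 0.13). F11, coagulation factor XI, had 20.3, 23.8 and 25.4 CPM in tumour-free liver, against 93.4, 52.2 and 89.7 CPM in control liver (-1.75 ± 0.23). Serpinf1, an antiangiogenic serpin, changed by -2.09 ± 0.20. Plat, the tissue plasminogen activator, rose, with 8.10, 9.92 and 11.1 CPM in tumour-free liver, against 0.229, 1.97 and 1.23 CPM in control liver and a change of 3.08 ± 0.53. Cpb2, which slows clot breakdown, rose by 0.84 ± 0.18.

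Complement genes moved both ways. Of 32 genes 12 fell and 8 rose (median 0.05). Among hepatocyte components of the membrane attack complex, C8a had 2.64, 7.41 and 4.06 CPM in tumour-free liver, against 772, 369.9 and 492 CPM in control liver (-6.84 ± 0.49). C8g had 6.49, 7.18 and 11.2 CPM in tumour-free liver, against 455, 653 and 508 CPM in control liver (-6.01 ± 0.30). C8b, the other subunit of C8, chosen after its values were seen, had 246, 292 and 201 CPM in tumour-free liver, against 215, 52.7 and 137 CPM in control liver, a change of 0.88 ± 0.44 that did not pass, though without control 1 it passed at 1.38 ± 0.40 (adjusted p = 0.0362). C2 (-1.35 ± 0.12) and Serping1, the C1 inhibitor (-1.21 ± 0.18), fell too. The rises included genes known from macrophages: C1qb of the C1q complex had 73.5, 87.2 and 91.9 CPM in tumour-free liver, against 32.2, 51.7 and 41.95 CPM in control liver (1.01 ± 0.19), the receptor C5ar1 changed by 1.36 ± 0.28 and the integrin Itgb2 by 0.95 ± 0.17.

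Of 37 acute phase genes 17 fell and 7 rose; the median of -0.32 came to 0.12 with library size alone. Hp, haptoglobin, had 784, 872 and 839 CPM in tumour-free liver, against 2938, 4529 and 4219.8 CPM in control liver (-2.22 ± 0.21). Lbp, which binds bacterial lipopolysaccharide, had 12.4, 19.005 and 14.7 CPM in tumour-free liver, against 84.4, 63.4 and 88.3 CPM in control liver (-2.35 ± 0.20). Saa1, serum amyloid A, changed by -2.04 ± 0.15. The metal-binding Mt2, metallothionein, rose, with 393, 287 and 295 CPM in tumour-free liver, against 40.2, 10.01 and 6.56 CPM in control liver and a change of 4.12 ± 0.72, and control 1 was the highest of the controls. Cd14, the coreceptor for lipopolysaccharide, had 21.95, 22.5 and 17.5 CPM in tumour-free liver, against 2.92, 5.68 and 2.08 CPM in control liver (2.54 ± 0.34). Orm2, an acid glycoprotein, changed by 2.45 ± 0.51. Among iron genes Hamp, the hormone hepcidin, had 393, 254 and 256 CPM in tumour-free liver, against 793, 536 and 1312 CPM in control liver (-1.54 ± 0.33). Hamp2 had 1.13, 0.342 and 1.56 CPM in tumour-free liver, against 70.6, 112 and 28.5 CPM in control liver (-6.13 ± 0.72). Tfr2, a sensor of transferrin, changed by -1.30 ± 0.16.

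Of 34 brush border and gut epithelium genes 19 rose and 4 fell (median 1.61). Another 25 listed genes were too low to be tested, and a member near 0 in control liver could be tested only through its level in tumour-free liver. Beside Vil1, Cdhr2, Slc15a1 and Muc13, a membrane mucin with 152, 247 and 268 CPM in tumour-free liver, against 0.573, 1.12 and 0.393 CPM in control liver, Eps8l2, an actin regulator, had 204, 261 and 241 CPM in tumour-free liver, against 54.9, 62.1 and 70.2 CPM in control liver (1.92 ± 0.16). The falls included Lgals4, a gut galectin (-2.61 ± 0.23), Fabp2, the intestinal fatty acid binding protein (-3.23 ± 0.29), and Anpep, an aminopeptidase (-1.53 ± 0.21). The rise did not extend to the whole list, and Cdx1 and Cdx2 stayed without a count.

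Of 41 junction and adhesion genes 22 rose and 3 fell (median 0.91). Cldn7, a tight junction claudin, had 17.3, 50.02 and 46.2 CPM in tumour-free liver, against 0.458, 0.450 and 1.01 CPM in control liver (5.88 ± 0.54). The desmosome linkers Pkp3 and Ppl had 17.1, 26.2 and 23.8 CPM in tumour-free liver, against 1.78, 2.25 and 2.69 CPM in control liver (3.32 ± 0.24) and 171, 163 and 198 CPM in tumour-free liver, against 30.8, 18.6 and 13.7 CPM in control liver (3.09 ± 0.29). Nectin3 fell, with 15.5, 11.6 and 8.08 CPM in tumour-free liver, against 75.5, 51.7 and 64.2 CPM in control liver and a change of -2.44 ± 0.25. Bile duct markers did not move as one: Epcam had 19.4, 25.9 and 21.2 CPM in tumour-free liver, against 1.83, 1.57 and 1.79 CPM in control liver (3.68 ± 0.19), while the duct keratin Krt19 had 0.866, 1.25 and 1.47 CPM in tumour-free liver, against 2.35, 0.899 and 2.75 CPM in control liver and the duct transcription factor Sox9 had 2.29, 6.04 and 6.14 CPM in tumour-free liver, against 5.21, 3.26 and 3.37 CPM in control liver, with overlapping groups.

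Of 19 annexins and S100 proteins 7 rose and 2 fell. S100a6 had 55.1, 86.97 and 122 CPM in tumour-free liver, against 1.49, 6.80 and 2.47 CPM in control liver (4.62 ± 0.61). S100a11 had 41.96, 72.6 and 77.1 CPM in tumour-free liver, against 2.06, 10.6 and 4.60 CPM in control liver (3.48 ± 0.58). Anxa3 had 23.2, 17.3 and 19.7 CPM in tumour-free liver, against 4.58, 6.30 and 6.06 CPM in control liver (1.83 ± 0.19). These 3 genes of calcium- and membrane-binding proteins stood higher in all 3 tumour-free animals than in any control.

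Most macrophage markers rose. Of 41 markers 26 rose and 1 fell, and their levels summed to 22065 to 24595 CPM in tumour-free liver and 23979 to 32205 CPM in control liver, a sum made up mostly of Apoe, which hepatocytes make too. Cd68, a lysosomal protein of macrophages, had 61.2, 83.2 and 73.2 CPM in tumour-free liver, against 13.5, 15.9 and 10.4 CPM in control liver (2.46 ± 0.20). Adgre1, a surface receptor of mature macrophages, had 28.2, 20.4 and 15.6 CPM in tumour-free liver, against 8.65, 8.38 and 7.91 CPM in control liver (1.37 ± 0.22). Csf1r, the growth factor receptor of the lineage, changed by 1.12 ± 0.13. Of 17 tested markers of resident Kupffer cells 8 rose and 1 fell, 52.9% of them. Among the defining ones Clec4f changed by 0.60 ± 0.14, a call lost without control 3 (adjusted p = 0.0636). Vsig4 rose by 0.92 (adjusted p = 0.00207), with 28.5, 32.2 and 32.8 CPM in tumour-free liver, against 19.1, 16.3 and 14.2 CPM in control liver. Cd5l rose by 0.51 (adjusted p = 0.0245). Timd4 had 12.3, 5.28 and 7.22 CPM in tumour-free liver, against 8.53, 7.59 and 4.88 CPM in control liver, with overlapping groups. The largest rises of the macrophage list were in genes that other cells can express too: Gpnmb had 277, 166 and 179.9 CPM in tumour-free liver, against 1.32, 7.42 and 1.91 CPM in control liver (5.87 ± 0.71). Cd63, a tetraspanin of lysosomes, had 59.1, 56.3 and 77.1 CPM in tumour-free liver, against 2.41, 7.76 and 3.03 CPM in control liver (3.87 ± 0.43), and Atp6v0d2 is given above. No defining macrophage marker was at 0 in any library, and the part of macrophages in the other results was not tested. The defining markers of T, B and NK cells were at most 2.94 CPM in any of the 6 libraries, and of those tested none passed. In the longer list of 27 tested lymphocyte genes 3 rose and 1 fell. Trac, a T cell receptor constant region, had 9.53, 38.9 and 31.8 CPM in tumour-free liver, against 1.03, 0.899 and 1.51 CPM in control liver (4.55 ± 0.57). Ighm, the constant region of immunoglobulin M, had 156, 229.6 and 248 CPM in tumour-free liver, against 34.4, 65.7 and 23.8 CPM in control liver (2.36 ± 0.38). Zap70, a kinase of T cell receptor signalling, had 0.953, 0.608 and 0.605 CPM in tumour-free liver, against 12.7, 15.1 and 13.01 CPM in control liver (-4.22 ± 0.24).

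Of 31 lysosome and autophagy genes 13 rose and 2 fell. Beside Atp6v0d2 and Gpnmb, the proton pump subunit Atp6v1h (0.77 ± 0.14) and the glycosidase Gusb (0.64 ± 0.15) rose.

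Sinusoidal endothelial genes went down in part. Of 31 markers 9 fell and 4 rose (median -0.29), but with library size alone none fell and 9 rose. Fcgr2b, an immune complex receptor, had 36.3, 32.8 and 38.7 CPM in tumour-free liver, against 58.996, 58.7 and 62.2 CPM in control liver (-0.73 ± 0.12). Dnase1l3 changed by -0.78 ± 0.14. The calls of Fcgr2b and Dnase1l3 were lost with library size alone. The defining markers did not move as one: Stab2 changed by -0.41 (adjusted p = 0.0393) and Clec4g by -0.75 (adjusted p = 0.00982). Lyve1 rose by 0.96 (adjusted p = 0.0438), with 13.5, 8.06 and 10.2 CPM in tumour-free liver, against 4.52, 7.93 and 3.93 CPM in control liver. Calls of Stab2, Clec4g and Lyve1 in other fits are not given here. Flt4, the lymphatic growth factor receptor VEGFR3, rose, with 264, 244 and 238 CPM in tumour-free liver, against 26.98, 32.2 and 25.1 CPM in control liver and a change of 3.15 ± 0.16, and Flt1, VEGFR1, by 1.47 ± 0.16. Of 36 markers of other endothelium 9 rose and 4 fell, 36.1% against 34.9% of all genes tested. Nid1, a basement membrane protein, had 158, 168 and 116 CPM in tumour-free liver, against 13.6, 15.9 and 16.7 CPM in control liver (3.27 ± 0.19). Cd34 had 6.88, 6.73 and 8.60 CPM in tumour-free liver, against 1.55, 2.19 and 3.14 CPM in control liver (1.70 ± 0.28). Col4a1, a type IV collagen chain, changed by 1.74 ± 0.21. Nrp2, a semaphorin and VEGF coreceptor, changed by -1.25 ± 0.17.

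Of 37 stellate cell and myofibroblast markers 14 rose and 1 fell (median 0.50). Lrat, which stores vitamin A in stellate cells, had 33.3, 42.6 and 44.4 CPM in tumour-free liver, against 18.1, 25.6 and 19.6 CPM in control liver (0.93 ± 0.18). Reln had 78.1, 75.1 and 67.03 CPM in tumour-free liver, against 40.2, 39.4 and 53.6 CPM in control liver (0.73 ± 0.15). Loxl2, a collagen crosslinker (1.91 ± 0.21), Lum, a matrix proteoglycan (1.83 ± 0.26), and Pdgfra, a growth factor receptor (1.31 ± 0.21), rose. Acta2, which marks myofibroblasts, had 8.01, 3.50 and 5.53 CPM in tumour-free liver, against 9.45, 6.46 and 14.7 CPM in control liver and did not pass (-0.84 ± 0.37), and the fibrillar collagen gene Col1a1 had 26.1, 58.5 and 88.5 CPM in tumour-free liver, against 7.73, 34.3 and 14.8 CPM in control liver, lowest in animal 1 of either group, and did not pass either (1.61 ± 0.66). Col1a1 passed without the animals numbered 1, at 1.59 ± 0.39 (adjusted p = 0.0213), with the replicate block (adjusted p = 0.0191) and with all groups in 1 fit (adjusted p = 0.0395), and Acta2 with the block (adjusted p = 0.0335).

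Of 50 collagen and structural matrix genes 25 rose and 2 fell (median 0.98). Of the chains of laminin, the scaffold of basement membranes, Lamc1 had 57.2, 79.8 and 54.4 CPM in tumour-free liver, against 18.7, 19.7 and 18.96 CPM in control liver (1.75 ± 0.17). Lamb3 had 3.12, 2.36 and 2.90 CPM in tumour-free liver, against 16.2, 19.4 and 16.5 CPM in control liver (-2.63 ± 0.19). Fbln2, a fibulin of elastic fibres, had 14.1, 32.004 and 26.2 CPM in tumour-free liver, against 3.61, 4.72 and 4.37 CPM in control liver (2.52 ± 0.31). Fbn1, fibrillin, rose by 1.69 ± 0.21. Of 51 proteases and inhibitors 20 rose and 3 fell. St14, the epithelial membrane protease matriptase, had 122, 188 and 164 CPM in tumour-free liver, against 1.55, 1.52 and 1.51 CPM in control liver (6.70 ± 0.23). Tmprss2, a related protease, had 58.9, 93.4 and 66.3 CPM in tumour-free liver, against 5.61, 4.78 and 5.44 CPM in control liver (3.79 ± 0.21). Itih5, of the inter-alpha-inhibitor family, had 112, 167 and 128 CPM in tumour-free liver, against 9.11, 3.77 and 5.72 CPM in control liver (4.46 ± 0.33). Among intracellular serpins Serpinb6a had 172, 236 and 208 CPM in tumour-free liver, against 12.3, 13.4 and 17.8 CPM in control liver (3.83 ± 0.21). Serpinb1a had 0.909, 0.760 and 1.04 CPM in tumour-free liver, against 13.002, 8.38 and 10.4 CPM in control liver (-3.54 ± 0.25).

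In the EGF receptor list, which also holds other growth factor receptors and ligands, 10 of 36 genes rose and 8 fell. The ligand Nrg1 had 8.44, 10.4 and 8.73 CPM in tumour-free liver, against 0.630, 1.80 and 1.07 CPM in control liver (2.98 ± 0.35). Btc, betacellulin, had 13.3, 12.5 and 9.25 CPM in tumour-free liver, against 3.89, 2.25 and 3.70 CPM in control liver (1.84 ± 0.25). Tgfa changed by 1.31 ± 0.22. The receptor Erbb4 had 1.04, 0.874 and 0.562 CPM in tumour-free liver, against 4.41, 3.99 and 2.92 CPM in control liver (-2.18 ± 0.32), and Egfr itself had 43.6, 52.3 and 31.4 CPM in tumour-free liver, against 139, 74.2 and 186 CPM in control liver (-1.64 ± 0.33). Of the FGF system Fgf1 had 12.3, 7.11 and 11.97 CPM in tumour-free liver, against 129, 82.7 and 109.9 CPM in control liver (-3.35 ± 0.26), and the receptors Fgfr3 and Fgfr4 changed by -2.42 ± 0.26 and -1.73 ± 0.21. The collagen receptor Ddr1 rose, with 51.7, 53.9 and 38.3 CPM in tumour-free liver, against 2.35, 2.25 and 2.30 CPM in control liver and a change of 4.39 ± 0.18.

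Of 49 TGF-beta and BMP genes 17 rose and 6 fell. Among ligands Tgfb2 had 16.2, 13.04 and 10.9 CPM in tumour-free liver, against 0.687, 0.956 and 1.01 CPM in control liver (3.92 ± 0.25). Bmp8b, the close relative of Bmp8a, had 6.71, 3.12 and 4.11 CPM in tumour-free liver, against 0.172, 0.506 and 0.112 CPM in control liver (4.11 ± 0.54), while Inhbc, an activin chain made by hepatocytes, had 4.16, 5.44 and 5.40 CPM in tumour-free liver, against 86.5, 84.3 and 106 CPM in control liver (-4.19 ± 0.18). The receptor Tgfbr2 had 235, 198 and 168 CPM in tumour-free liver, against 38.5, 32.8 and 40.7 CPM in control liver (2.43 ± 0.17). Among proteins that bind the ligands, Ltbp3 had 159, 272 and 249 CPM in tumour-free liver, against 2.98, 6.75 and 4.37 CPM in control liver (5.60 ± 0.37). Fstl3, an activin and myostatin antagonist, had 9.92, 16.5 and 12.2 CPM in tumour-free liver, against 0.401, 0.506 and 0.617 CPM in control liver (4.65 ± 0.30). Smad9, an effector of BMP receptors, fell, with 0.130, 0.190 and 0.259 CPM in tumour-free liver, against 6.42, 3.94 and 13.1 CPM in control liver and a change of -5.28 ± 0.56. None of these 7 genes overlapped between the groups.

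Of 30 YAP and TEAD targets 11 rose and 1 fell (median 0.34). Ankrd1, a standard target, had 4.94, 8.97 and 14.8 CPM in tumour-free liver, against 1.03, 0.562 and 0.561 CPM in control liver (3.74 ± 0.48). Crim1 had 65.7, 50.7 and 38.1 CPM in tumour-free liver, against 13.9, 10.1 and 11.4 CPM in control liver (2.14 ± 0.22), and Ajuba and Ptpn14, scaffold and phosphatase genes of the pathway, changed by 2.52 ± 0.32 and 2.18 ± 0.22. Yap1 (0.24 ± 0.16) and Wwtr1 (0.19 ± 0.16), which encode the regulators, were chosen after their values were seen and did not pass. Of 42 genes of the Wnt, Notch and Hedgehog pathways 5 rose and 5 fell. The receptor Fzd10 had 1.78, 3.72 and 2.59 CPM in tumour-free liver, against 0, 0 and 0 CPM in control liver, at least 48.5-fold higher against a floor of 3 counts, and the ligands Wnt5a and Ihh changed by 1.55 ± 0.21 and 2.10 ± 0.37.

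Of 32 p53 targets 13 rose and 2 fell (median 0.60). Cdkn1a, the cell cycle inhibitor p21, had 82.8, 70.2 and 81.6 CPM in tumour-free liver, against 12.4, 11.2 and 5.78 CPM in control liver (3.00 ± 0.27, adjusted p = 1.12e-04). Tnfrsf10b, a death receptor, had 4.89, 4.68 and 3.93 CPM in tumour-free liver, against 0.687, 0.843 and 0.953 CPM in control liver (2.44 ± 0.26), and Phlda3, Zmat3 and Polk changed by 1.90 ± 0.24, 1.39 ± 0.15 and 1.59 ± 0.19. Fas, another death receptor, changed by -1.01 ± 0.14. Replication genes moved both ways: of 56 genes of the G1 to S step 13 rose and 8 fell. That is 37.5% of them, a share near the 34.9% of all genes tested. Mcm6, part of the replicative helicase, had 18.3, 17.8 and 19.2 CPM in tumour-free liver, against 4.98, 6.24 and 4.21 CPM in control liver (1.85 ± 0.18). Mcm10, which helps to start it, had 30.7, 25.2 and 23.6 CPM in tumour-free liver, against 115, 113 and 131 CPM in control liver (-2.16 ± 0.15). Dnmt1, the maintenance DNA methyltransferase (1.40 ± 0.17), and Cdkn2c, an inhibitor of CDK4 and CDK6 (1.49 ± 0.20), rose, and Tk1, thymidine kinase, changed by -1.25 ± 0.20.

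Of 29 tested oncofetal liver genes 19 rose and none fell (median 2.10), and 9 of the listed genes did not pass the filter on low counts. Among these, Lin28a and Lin28b had no count in either group, and Igf2 had 4 counts in tumour-free and 3 in control liver. Akr1c18 had 86 and 7 counts, and Hmga2 had 13 and 1. A member near 0 in control liver could be tested only through its level in tumour-free liver. Igf2bp2, an RNA-binding protein of fetal tissue, had 12.3, 13.5 and 11.7 CPM in tumour-free liver, against 1.78, 1.63 and 2.24 CPM in control liver (2.73 ± 0.20). Meg3, an imprinted noncoding RNA, had 49.7, 61.8 and 75.2 CPM in tumour-free liver, against 5.90, 4.05 and 2.13 CPM in control liver (3.96 ± 0.34). Golm1, a Golgi protein known as a serum marker of liver tumours, had 11.6, 17.6 and 13.2 CPM in tumour-free liver, against 3.32, 3.26 and 3.37 CPM in control liver (2.10 ± 0.20). Sall4, a transcription factor of stem cells and fetal liver, had 1.69, 1.60 and 1.94 CPM in tumour-free liver, against 0, 0 and 0.0561 CPM in control liver, a ratio of 92.2 on 1 control count (interval 16.2 to 3670). Of 40 genes of mitosis 12 rose and 1 fell, with a median of 1.16, a share near that of all genes, and with library size alone 24 rose. Levels were low: Top2a, topoisomerase II alpha, had 5.85, 6.69 and 5.10 CPM in tumour-free liver, against 1.09, 2.92 and 1.01 CPM in control liver (1.81 ± 0.41). Hmmr, a spindle protein, had 2.81, 2.17 and 1.04 CPM in tumour-free liver, against 0.401, 0.506 and 0.112 CPM in control liver (2.55 ± 0.56), and Spc25 of the kinetochore had 2.42, 2.05 and 1.47 CPM in tumour-free liver, against 6.59, 6.86 and 6.45 CPM in control liver (-1.73 ± 0.24).

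Of 55 interferon-stimulated and MHC genes 19 rose and 5 fell. Oasl1, an antiviral protein, had 112, 186 and 139 CPM in tumour-free liver, against 19.2, 16.7 and 20.9 CPM in control liver (2.95 ± 0.21). H2-Q7, a class Ib MHC chain, had 74.7, 107 and 100.05 CPM in tumour-free liver, against 32.5, 23.5 and 29.6 CPM in control liver (1.73 ± 0.19), and Usp18 and Ifit2 changed by 1.19 ± 0.15 and 1.34 ± 0.19. The falls were in genes that interferon gamma induces: the chemokine Cxcl9 had 7.01, 4.98 and 6.31 CPM in tumour-free liver, against 17.5, 21.4 and 18.3 CPM in control liver (-1.64 ± 0.18), and the GTPases Igtp, Ifi47 and Iigp1 changed by -1.34 ± 0.20, -1.06 ± 0.19 and -1.26 ± 0.23. Of 42 chemokines, cytokines and receptors 17 rose and 5 fell. Tnfrsf12a, the receptor Fn14 of injured epithelium, had 40.3, 67.8 and 62.1 CPM in tumour-free liver, against 7.10, 8.99 and 6.34 CPM in control liver (2.93 ± 0.24). Il33, an alarm cytokine, had 13.2, 14.7 and 8.82 CPM in tumour-free liver, against 2.81, 2.53 and 2.47 CPM in control liver (2.24 ± 0.23). Ccl7 and Cxcl14, chemokines, changed by 2.70 ± 0.41 and 2.42 ± 0.38. Ccl9, another chemokine, fell, with 20.7, 13.3 and 12.7 CPM in tumour-free liver, against 107, 71.7 and 68.5 CPM in control liver and a change of -2.39 ± 0.25.

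Of 37 genes of serine, asparagine and proline synthesis under the stress factor ATF4 15 rose and 3 fell (median 0.39). Asns, asparagine synthetase, had 125, 100.4 and 76.4 CPM in tumour-free liver, against 0.401, 0.956 and 0.505 CPM in control liver, a change of 7.33 ± 0.33 (adjusted p = 5.74e-06). Aldh18a1, the first enzyme of proline synthesis, had 4.55, 3.72 and 3.72 CPM in tumour-free liver, against 0.630, 0.843 and 0.785 CPM in control liver (2.41 ± 0.27). Vldlr, a lipoprotein receptor, had 38.5, 42.9 and 33.7 CPM in tumour-free liver, against 6.36, 8.43 and 5.78 CPM in control liver (2.49 ± 0.19). Slc7a5, a carrier of large amino acids, rose by 1.37 ± 0.18. The list did not move as a whole: Gdf15, a secreted stress hormone, had 7.79, 2.70 and 4.32 CPM in tumour-free liver, against 23.6, 19.9 and 8.97 CPM in control liver (-1.82 ± 0.46). Atf5, a related stress factor, changed by -1.16 ± 0.26. The call of Gdf15 was lost without control 1 or 2 or tumour-free animal 2 or 3 (adjusted p from 0.0511 to 0.0828), and that of Atf5 with library size alone.

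Of 26 genes of the unfolded protein response 4 fell and 1 rose; the rise was the sensor Ern1 (1.10 ± 0.20). Of 21 clock genes 7 fell and 2 rose: Npas2 (3.19 ± 0.48) and Arntl (1.49 ± 0.33), the activating arm, against Dbp (-1.14 ± 0.19) and Tef (-0.85 ± 0.15), its output genes, and Bhlhe41, a repressor, which had 0.303, 0.608 and 0.519 CPM in tumour-free liver, against 7.90, 6.52 and 11.1 CPM in control liver (-4.12 ± 0.34). The time of day of collection is not given in the sources used here. Of 76 cytosolic ribosomal protein genes 1 rose and 4 fell, and of 64 genes of ribosome biogenesis and MYC targets 4 rose and 11 fell, which turned to 25 rises and 3 falls with library size alone. Ctps, CTP synthase, had 27.6, 27.6 and 21.7 CPM in tumour-free liver, against 7.73, 9.89 and 7.57 CPM in control liver (1.62 ± 0.17). Mycl, a relative of Myc, had 0.909, 0.418 and 0.691 CPM in tumour-free liver, against 14.8, 7.59 and 9.31 CPM in control liver (-3.96 ± 0.37).

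To ask which of these changes were already there earlier, each effect was set beside that of 3 mutant against 6 control livers at 2 months, which had their own controls. Of 4723 genes called at 9 months and tested at 2 months, 4551 had the same sign, 3620 (76.6%) were called in the same direction and 18 in the opposite one. The shares of all genes with the same sign or called at 2 months are not given here, so these counts have no background beside them. The difference between the effects passed for 223 of 14707 genes (1.52%), 68 positive (0.462%) and 155 negative (1.05%), and for 64 of the rises and 106 of the falls above. This count varied with the libraries: without mutant 2 of 2 months it was 110, and without tumour-free animal 2 or 3 it was 115 or 118.

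Several rises were larger at 9 months. Cdh1 changed by 5.31 ± 0.24 at 9 months and by 2.06 ± 0.23 at 2 months (difference 3.26 ± 0.37, adjusted p = 6.85e-04). Eps8l2 changed by 1.92 ± 0.16 at 9 months and by 0.58 ± 0.16 at 2 months (difference 1.36 ± 0.25, adjusted p = 0.0115). Csad changed by 1.39 ± 0.15 at 9 months and by -0.19 ± 0.17 at 2 months (difference 1.59 ± 0.25, adjusted p = 0.00431). These 3 differences passed without any 1 library in turn.

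Tff3 changed by 7.80 ± 0.89 at 9 months and by 1.01 ± 0.71 at 2 months, a difference of 6.79 ± 1.39 (adjusted p = 0.0305). That call was lost, at adjusted p from 0.0532 to 0.0901, without mutant 1 or 2 or control 6 of 2 months, any 1 of the 9-month controls, or tumour-free animal 2 or 3. Apoa4 went the other way, with 1.76 ± 0.39 at 9 months and 5.78 ± 0.61 at 2 months, a difference of -4.01 ± 0.85 (adjusted p = 0.0331). It was lost, at adjusted p from 0.0529 to 0.105, without mutant 1 or 2 of 2 months, control 2 or 3 of 9 months, or any 1 of the tumour-free animals.

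Several falls were deeper at 9 months. Acss3 changed by -7.995 ± 0.23 at 9 months and by -4.19 ± 0.34 at 2 months (difference -3.79 ± 0.51, adjusted p = 0.00125). Wfdc21 changed by -7.24 ± 0.43 at 9 months and by -3.26 ± 0.23 at 2 months (difference -3.97 ± 0.40, adjusted p = 2.56e-04). Sult2a7 changed by -6.06 ± 0.54 at 9 months and by -0.37 ± 0.37 at 2 months (difference -5.67 ± 0.67, adjusted p = 7.60e-04). For Sult2a8 the difference was -2.28 ± 0.41 (adjusted p = 0.00948), and for Keg1 it was -2.71 ± 0.42 (adjusted p = 0.00481). Cyp2c38 was less far down at 9 months, with -3.84 ± 0.30, than at 2 months, with -6.91 ± 0.38 (difference 3.07 ± 0.53, adjusted p = 0.00802). These 6 differences also passed without any 1 library. With limma voom those of Sult2a8 and Cyp2c38 were lost (adjusted p = 0.0612 and 0.0796), and in 1 fit over all 5 groups, tumours included, the differences of Cdh1, Wfdc21, Sult2a7 and Apoa4 passed while those of the other 7 genes named here did not.

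**Figure D4:**
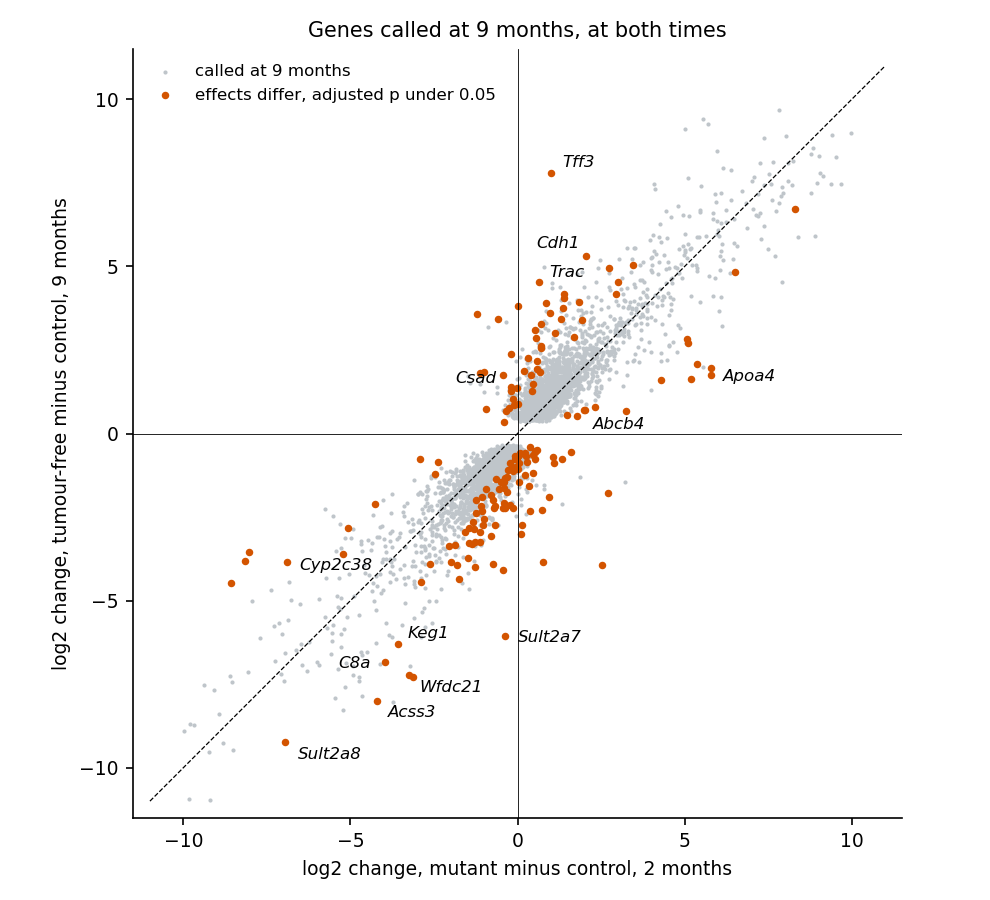
Log2 change of the genes called at 9 months, tumour-free minus control (vertical), against mutant minus control at 2 months (horizontal); orange points passed the test of the difference, and the dashed line marks equal effects. Tff3 lies at 7.80 against 1.01, and Apoa4 below the line at 1.76 against 5.78.

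The 4 tumours of the same 3 animals, with the 2 tumours of mutant 1 summed, were set against the tumour-free tissue to see where that tissue stands between control liver and tumour. By edgeR 2 of 14566 genes (0.0137%) passed, both higher in tumours and both known from sprouting endothelium, with 1454 at an unadjusted p under 0.05. DESeq2 called 442 and limma voom none, and without the tumours of mutant 1 edgeR called 63, so the count says little on how alike the tissues are. Apln, the peptide ligand apelin, was too low in tumour-free and control liver to be tested between them; it had 10.01, 15.4 and 11.1 CPM in tumours, 0.260, 0.342 and 0.130 CPM in tumour-free liver and 0.115, 0.169 and 0 CPM in control liver, a difference of 5.59 ± 0.38 between tumours and tumour-free tissue (adjusted p = 0.0262). Esm1, an endothelial proteoglycan, had 51.7, 29.8 and 48.1 CPM in tumours, 3.03, 4.11 and 4.36 CPM in tumour-free liver and 0.515, 1.01 and 0.393 CPM in control liver. Its difference between tumours and tumour-free tissue was 3.48 ± 0.28 (adjusted p = 0.0364), and between tumour-free and control liver it rose by 2.58 ± 0.39. With the animal as a replicate block, which pairs the tissues of each mutant, neither passed (adjusted p = 0.0866 for Apln and 0.255 for Esm1), nor did they without any 1 of the tumour-free pieces (adjusted p from 0.186 to 0.524). The gene that passed with the block, named after its values were seen, was Ces1e, a liver carboxylesterase, with 73.04, 27.00 and 28.6 CPM in tumours, 6.15, 2.36 and 1.90 CPM in tumour-free liver and 459, 375 and 423 CPM in control liver, a blocked difference of 3.64 ± 0.16 between tumours and tumour-free tissue (adjusted p = 0.0490). In several genes the tumours lay far apart. Acsm4 had 7.26, 0.152 and 0.777 CPM in tumours and 18.2, 10.03 and 9.38 CPM in tumour-free liver, Slc6a19 had 18.4, 4.06 and 5.14 CPM in tumours and 32.2, 51.9 and 45.8 CPM in tumour-free liver, and Mep1a, a brush border protease, had 78.5, 1.10 and 1.34 CPM in tumours and 52.6, 92.9 and 53.1 CPM in tumour-free liver. For these 3 genes the difference did not pass (adjusted p = 0.614, 0.33 and 0.85); without the tumours of mutant 1, Slc6a19 and Mep1a were lower in tumours (adjusted p = 0.0239 and 0.0175), and Slc6a19 was also lower by DESeq2 (adjusted p = 0.00522) and with all groups in 1 fit (adjusted p = 0.0344). The liver enzyme Cyp2e1 had 1005, 39.3 and 111 CPM in tumours, 2156, 1245 and 1228 CPM in tumour-free liver and 10935, 6422 and 10119 CPM in control liver, and in tumours against tumour-free tissue its adjusted p was 0.637.

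**Figure D5:**
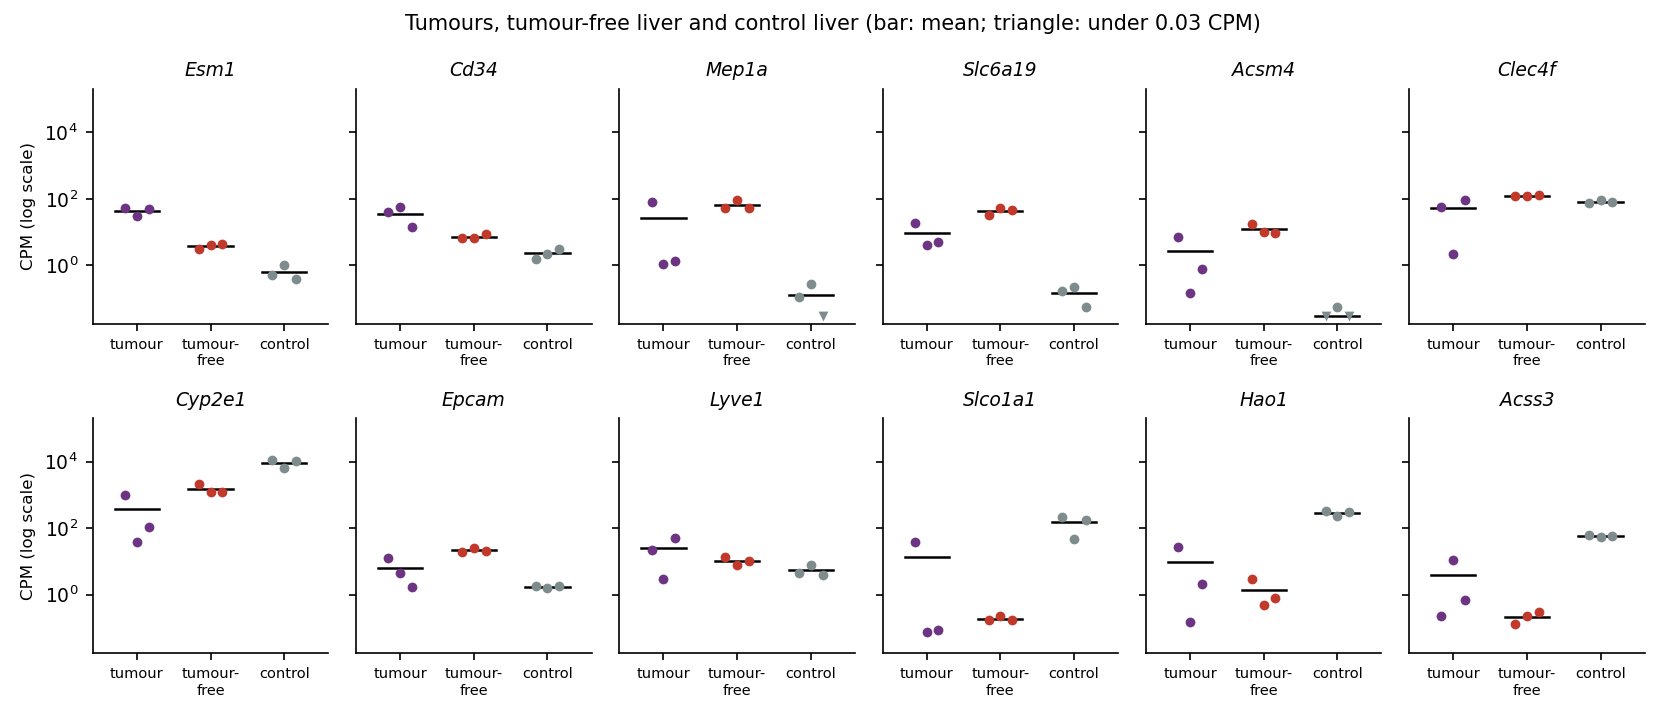
Levels of 12 genes in tumours (left, violet; the 2 tumours of mutant 1 summed), tumour-free liver (middle, red) and control liver (right, grey), in CPM on a log scale; points are animals, bars are means, and triangles or a bar at the bottom edge stand for values under 0.03 CPM. Esm1 is highest in tumours, lower in tumour-free liver and lowest in control liver, and the 3 tumours of Mep1a, Cyp2e1 and Hao1 are spread far wider than the 3 tumour-free pieces.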

How the data were processed

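Polyadenylated RNA of mouse liver was sequenced with a strand-marking kit, per the labels' protocols, and 1 table gives each library's whole-number count per gene as deposited. Per the submitters' processing notes the genome was GRCm38/mm10 and the tools named are DESeq2 1.22.2, bedtools 2.27.1, STAR 2.6.1a and RSEM; the sources used here give neither their roles, nor whether the counts are rounded RSEM estimates, nor the strand setting. Nothing was normalized in the table.

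The counts were fitted here in R 4.3.3 with edgeR 4.0.16 (filterByExpr, TMM, robust quasi-likelihood fits), on the 6 libraries of the comparison, with Benjamini-Hochberg adjustment over all genes tested. The interaction with time used 15 libraries, and the tumour comparison 6 units after the 2 tumours of mutant 1 were summed, since tissues of 1 animal share it. The pieces of a mutant come from the same animal, so numbers pair tumour with tumour-free tissue; deviations of same-animal pairs from their group means correlated at 0.252, 0.306 and 0.0738. Ratios for genes with 1 to 3 counts in a group have exact 95% Clopper-Pearson intervals, and floors are 3 counts over the group; both cover counting error only. Code was tested on simulated data.

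The members and the 64 gene lists were chosen with earlier results of these data known. Of 2277 list entries 2035 were tested; counts of members refer to these, so a member that passed the filter only through 1 group had to differ. Named were Jun, Fosl2 and Myc, the 20 largest rises and falls among called coding genes with at least 5 CPM in the higher group and no overlap (the ones described being a selection), the 5 largest each way among lncRNA genes with at least 2 CPM, up to 5 called members per list and direction by adjusted p, all members of lists with at most 14, and cell type markers; others are marked as chosen after their values were seen. Alternatives were DESeq2 1.42.0, limma voom 3.58.1, RLE size factors, library size alone, no filter, all groups in 1 fit, a replicate block, a 2-fold minimum, coding genes only and leaving out libraries.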

Additional observations from a re-analysis of the deposited data

Results flagged for a closer look

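For the 11 genes set out above in the comparison with 2 months, the mutant effect in tumour-free liver at 9 months differed from that at 2 months. This was by edgeR's test of the interaction, which is why they are given again here. Other genes named above are not covered here. Each value is the 9-month log2 change minus the 2-month log2 change. It was positive for Tff3 (6.787, adjusted p = 0.0305), Cdh1 (3.259, adjusted p = 0.000685), Cyp2c38 (3.073, adjusted p = 0.00802), Csad (1.589, adjusted p = 0.00431) and Eps8l2 (1.359, adjusted p = 0.0115). Of these, Cyp2c38 fell at both times and less far at 9 months, and Csad rose at 9 months with a 2-month change of -0.19.

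It was negative for Sult2a7 (-5.666, adjusted p = 0.00076), Apoa4 (-4.009, adjusted p = 0.0331), Wfdc21 (-3.972, adjusted p = 0.000256), Acss3 (-3.792, adjusted p = 0.00125), Keg1 (-2.706, adjusted p = 0.0048) and Sult2a8 (-2.282, adjusted p = 0.00948). Apoa4 rose at both times, and the others were lower in mutants at 9 months by more than at 2 months. The 2 ages were sequenced in runs of their own, and the part of the run in these differences was not tested.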

How the results depend on the processing

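With library size alone 5706 genes were higher and 1178 lower, and Apoe (0.0611), Ass1 (0.256), Lgr5 (0.255) and Socs2 (0.067) changed sign; there 7 named genes that had not passed did, Hnf4a, Yap1, Wwtr1, Axin2, Apob, Cps1 and C8b. A 2-fold minimum left 1498 genes, 863 higher and 635 lower. Leaving out 1 library gave 1496 to 2272 lower genes and a change of Myc from -0.31 to 1.77, and with it Fos ranged from -6.36 to 1.70 and Junb from -1.82 to 0.99, both turning without control 1; without the animals numbered 1 they were 0.12 and 0.51. DESeq2 and RLE size factors kept the call and direction of every named gene they gave a value for in this comparison; limma voom lost Cryaa, Lrp2 and Slc7a11, and no filter lost 9, among them Sult1d1, Cyp4a12b and Orm2. With all groups in 1 fit 14 calls were lost, among them Clec4f, Cyp2b10, Dbp and Hamp. No other sign turned. The cause was not tested. The cell type markers Alb, Serpina1a, Cyp2e1, Ttr, Stab2, Clec4g and Lyve1 are not covered by these statements.

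Animals that share a number between tumour-free and control liver are not the same mice, so the main fit did not pair them. Their deviations correlated at 0.343, 0.00971 and -0.0381. Where a tumour and a tumour-free piece did share a mouse, the values were 0.252, 0.306 and 0.0738. Since true pairs scored this low, the correlations cannot decide whether a shared number marks a shared condition, which was not tested. The replicate block gave 5099 called genes (2669 higher and 2430 lower), and Myc passed (0.75, adjusted p = 0.026), as did Acta2 and Col1a1.

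The count of genes whose effect differs between ages was 523 by DESeq2, 54 with all groups in 1 fit, 54 with the replicate block, where Acss3, Csad, Cyp2c38, Sult2a8 and Tff3 were lost, and 110 to 293 without 1 library. Between tumours and tumour-free tissue it was 442 by DESeq2, 0 by limma voom, 47 with no filter, 380 with all groups in 1 fit, 1 with the animal as a replicate block and 0 to 63 without 1 library. With 3 animals a group, calls of genes under 1 CPM rest on few reads.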
